A study of Mus musculus with 8 samples.

Results

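The 9 retinoic acid handling genes described here, out of 20943 genes in the table, were Crabp1, Crabp2, Stra6, Aldh1a1, Aldh1a2, Aldh1a3, Cyp26a1, Cyp26b1 and Rarb, and all 9 were found. They were chosen by gene symbol, from roles in retinoid binding, uptake, synthesis, breakdown and reception, at a time when the differences between the tumor groups were already known. Their group differences are therefore described and not tested, and nothing is supported with them. No filter on low values was applied, and 8 of the 9 had a mean over all tumors at or above the median of all tested gene means, 8.43. The exception was Cyp26a1.

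Retinoic acid is made from vitamin A inside the cell and acts as the ligand of nuclear receptors. Retinol enters through the membrane receptor STRA6, is oxidized to retinaldehyde by dehydrogenases such as RDH10 and then to retinoic acid by the ALDH1A enzymes, is held in the cytosol by the CRABP proteins, and is degraded by the CYP26 enzymes. RAR and RXR receptors bind DNA as pairs at retinoic acid response elements, and the receptor gene Rarb and the breakdown gene Cyp26a1 are textbook targets of that signal. In the embryo the pathway patterns the hindbrain, the neural crest and the limb, and Crabp1 is widely used to mark migrating neural crest, the tissue from which Schwann cells arise.

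RNA came from 8 mouse MPNSTs (malignant peripheral nerve sheath tumors), which are sarcomas arising in the Schwann cell lineage. The 5 PRC2 wildtype tumors carried Plp-CreERT with floxed alleles of Nf1(f/f) and of Cdkn2a(f/f), both labelled as lost, and the 3 PRC2 loss tumors added Eed(f/f), with Eed labelled as lost too, whose product is a core part of Polycomb repressive complex 2, PRC2, the histone H3K27 methyltransferase. The floxed Nf1 and Cdkn2a alleles and a 0.4 mg tamoxifen treatment given from day 0 to day 3 of life were thus shared by both groups. Plp-CreERT is a tamoxifen-inducible recombinase of Schwann lineage cells, so vessels, immune cells and fibroblasts of the host keep their alleles, and the age at collection is not given in the sources used here. By title each tumor is a biological replicate, but the codes hold only 3 wildtype and 2 PRC2 loss animal numbers: wildtype tumors 1 and 2, wildtype tumors 3 and 4, and PRC2 loss tumors 2 and 3 share a number. If a number marks a mouse, p-values over tumors are too small. PRC2 loss tumor 1 grew on a paraspinal nerve, tumor 2 on the left sciatic nerve and tumor 3 on the right one; the descriptions of the wildtype tumors give no nerve.

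Each value is the authors' quantile-normalized log2 gene count, in which a step of 1 is a 2-fold change, and the sequencing depth is unknown. Eed lay between 8.76 and 8.96 in the PRC2 loss tumors and between 10.17 and 10.33 in the wildtype tumors (limma adjusted p = 0.00021). Nf1 and Cdkn2a, floxed in both groups, did not pass in limma, and these whole-gene values do not show their loss: Nf1 was 11.11 ± 0.26 (SD, n = 5) and 11.29 ± 0.17 (SD, n = 3). Cdkn2a was between 7.43 and 8.17 in wildtype, above every wildtype tumor in PRC2 loss tumors 1 and 2 (10.58 and 11), and at 5.67 in PRC2 loss tumor 3. In limma, 7424 of 20807 genes tested (35.7%) differed between the groups at an adjusted p below 0.05, 3337 with higher and 4087 with lower values in PRC2 loss. Centring each tumor on 15 housekeeping genes moved the median difference of all genes from -0.12 to 0.50 and the split to 7843 higher and 1541 lower, and the direction of small differences depends on the scaling. The groups also differed in cell type markers. Of 10 Schwann cell and myelin markers 9 rose, and their summed level (log2 of the summed linear values) ran from 12.40 to 14.51 in wildtype and from 17.45 to 18.30 in PRC2 loss. Of 5 perineurial markers all 5 rose (12.82 to 13.66 against 15.37 to 15.73), and of 6 endothelial markers 5 rose (12.79 to 13.60 against 14.73 to 15.48). Of 6 dendritic cell markers 5 fell and 1 rose (11.27 to 13.13 against 10.01 to 10.99), and of 6 macrophage markers 4 fell (15.44 to 16.60 against 14.74 to 15.13). No marker of the 6 for skeletal muscle or the 5 for adipocytes passed the test, but wildtype tumors 1 and 2 stood apart in muscle (16.02 and 15.66 against 7.46 to 8.74 in the other wildtype tumors). Of the other lists, 2 of 8 fibroblast markers and 1 of 5 mesothelial markers rose. Of 5 epithelial markers 1 rose and 2 fell, and of 5 neuron markers 1 rose and 1 fell. The summed neuron level was lower in PRC2 loss with no overlap (11.36 to 13.57 against 8.87 to 9.39). That sum came mainly from Stmn2, which fell from a mean of 11.63 to 6.78, and from Tubb3, which did not pass. Rbfox3, at lower values, rose from a mean of 3.24 to 5.72. No marker of these lists was at 0 in every tumor of a group. In bulk tumors fewer cells of a type and less RNA per cell cannot be told apart, and the part of these shifts in the differences below was not tested.

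**Figure D1:**
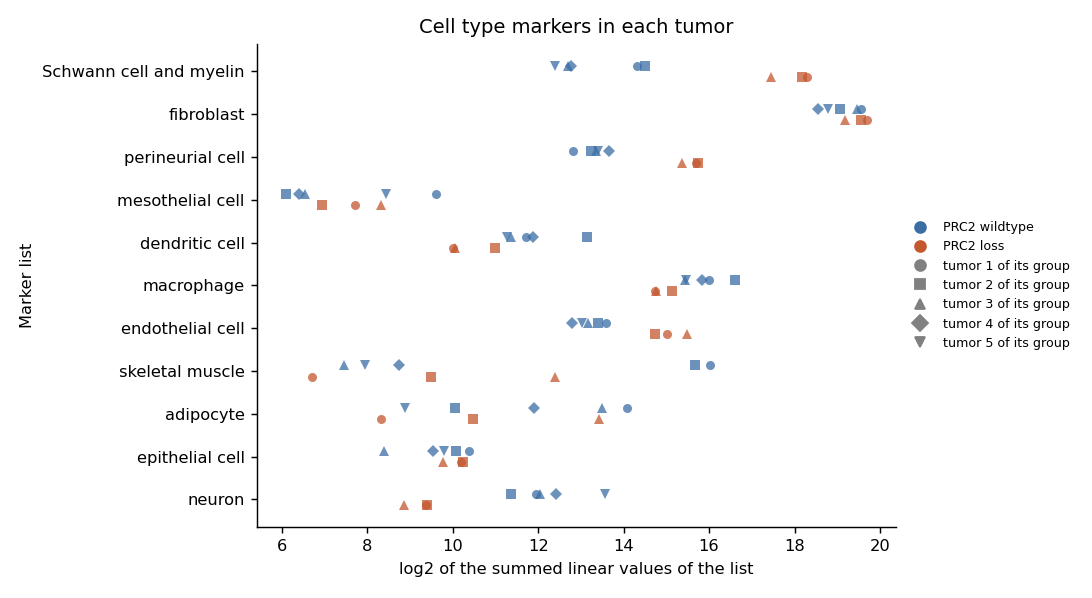
Summed level of each marker list (log2 of the summed linear values, horizontal axis) in the 5 PRC2 wildtype (blue) and 3 PRC2 loss (red) tumors, 1 symbol per tumor. Schwann cell and myelin, perineurial and endothelial lists lie higher in all 3 PRC2 loss tumors, dendritic cell, macrophage and neuron lists lie lower, and wildtype tumors 1 and 2 stand at 16.02 and 15.66 for skeletal muscle.

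In PRC2 loss tumors the retinoic acid binding proteins lay lower and the uptake receptor, the synthesis enzymes Aldh1a1 and Aldh1a2, the breakdown enzyme Cyp26b1 and the receptor Rarb lay higher. The groups did not overlap for 7 of the 9 genes, with 5 that lay higher and 2 that lay lower in PRC2 loss. Over all genes tested, 38.3% did not overlap: 16.9% with higher and 21.4% with lower values in PRC2 loss. The log2 differences of the 9 genes, negative for Crabp1, Crabp2 and Cyp26a1, had a median of 2.25, against -0.12 for all genes tested. All 9 differences were at least 2-fold in size, as were those of 7189 of the 20807 genes tested. None of the 9 changed sign under the alternative settings tried (19, or 18 for Cyp26a1, which a filter on low values removes). Since the genes were chosen with this contrast known, nothing is read from these counts or from the median.

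**Figure D2:**
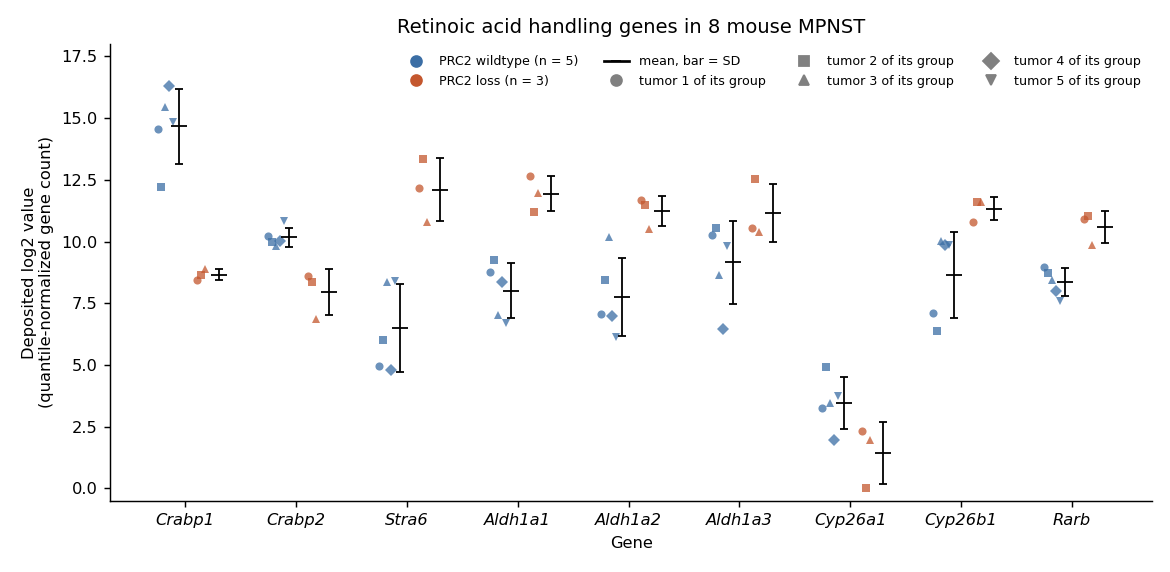
Deposited log2 values (vertical axis) of the 9 retinoic acid handling genes in each of 5 PRC2 wildtype (blue) and 3 PRC2 loss (red) tumors, with the mean and SD of each group in black. Crabp1 and Crabp2 lie lower in every PRC2 loss tumor, Stra6, Aldh1a1, Aldh1a2, Cyp26b1 and Rarb lie higher, and the groups overlap for Aldh1a3 and Cyp26a1.

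Crabp1, the first of the binding proteins, on chromosome 9 from 54764748 to 54773110 (mm10), encodes a cytosolic carrier that binds retinoic acid and passes it to breakdown. Its log2 value was 14.54, 12.23, 15.44, 16.31 and 14.84 in wildtype tumors 1 to 5 and 8.44, 8.66 and 8.89 in PRC2 loss tumors 1 to 3. Every wildtype tumor lay above every PRC2 loss tumor, with a gap of 3.34 between the groups. The means were 14.67 ± 1.52 (SD, n = 5) and 8.66 ± 0.22 (SD, n = 3), a log2 difference of -6.01 (SE 0.78), which ran from -6.62 without wildtype tumor 2 to -5.60 without wildtype tumor 4. The wildtype tumors spread over 4.08 and the PRC2 loss tumors over 0.45, so the lower group was also the tighter. Wildtype tumor 2, the lowest of its group, stood 2.31 below tumor 1, which carries the same animal number.

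Crabp2, on chromosome 3 from 87948666 to 87953376, encodes the related carrier that hands retinoic acid to its nuclear receptors. Its value was 10.23, 9.99, 9.81, 10.04 and 10.81 in the wildtype tumors and 8.61, 8.36 and 6.87 in the PRC2 loss tumors. Here the wildtype tumors were close together and PRC2 loss tumor 3 was the lowest of all 8. The means were 10.18 ± 0.39 (SD, n = 5) and 7.95 ± 0.94 (SD, n = 3), a log2 difference of -2.23 (SE 0.40), and the gap between the groups was 1.2. Without PRC2 loss tumor 3 the difference was -1.69. Fabp5, which encodes a further carrier that passes retinoic acid to the receptor PPARD, was tested with the list of other pathway genes below and fell as well.

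The promoters of Crabp1 and Aldh1a2 are shown because they held very different numbers of CG dinucleotides, a letter pair frequent in promoters where PRC2 is commonly found, and their transcripts lay in opposite directions. Over the 250 bases before and 50 after the start, Crabp1 held 17, Aldh1a2 50 and Cyp26a1 26, against a median of 7 over 32851 RefSeq promoters (quartiles 3 and 20). The last 100 bases before the start, from RefSeq on GRCm38.p6, with each CG in capitals, were at chr9:54764648-54764747 and chr9:71215689-71215788, both on the plus strand, and held 9 and 13 CGs.
Crabp1: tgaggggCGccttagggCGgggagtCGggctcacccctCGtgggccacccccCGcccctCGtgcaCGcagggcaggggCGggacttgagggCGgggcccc
Aldh1a2: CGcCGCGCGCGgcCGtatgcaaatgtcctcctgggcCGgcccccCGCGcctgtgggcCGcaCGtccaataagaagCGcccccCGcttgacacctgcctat
Of the 7 of 9 genes with a promoter in that table, the others all lay higher in PRC2 loss. Aldh1a1 held 3 and 1 CGs in its 2 promoters, Stra6 between 5 and 10 in 4, Cyp26b1 9 and Rarb 17. These counts were set beside the values after the values were seen, for genes chosen with this contrast known. Whether the CG number goes with the direction was not tested.

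Stra6, on chromosome 9 from 58063788 to 58153996, encodes the membrane receptor that takes up retinol from its plasma carrier. Its value was 4.96, 6.01, 8.36, 4.80 and 8.41 in the wildtype tumors and 12.17, 13.35 and 10.79 in the PRC2 loss tumors. The groups were apart by 2.39, the widest gap among the 5 genes that lay higher. The means were 6.51 ± 1.78 (SD, n = 5) and 12.10 ± 1.28 (SD, n = 3), a log2 difference of 5.60 (SE 1.01), which was 4.98 without PRC2 loss tumor 2 and 6.25 without PRC2 loss tumor 3. Among tumors that share an animal number, wildtype tumor 3 stood 3.56 above tumor 4, PRC2 loss tumor 2 stood 2.55 above tumor 3, and wildtype tumor 1 minus tumor 2 was -1.05. The gene lies across Ccdc33 on the opposite strand, which averaged 0.72 ± 0.66 (SD, n = 5) and 4.33 ± 0.94 (SD, n = 3); their annotated exons share no base in GENCODE M21.

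The 3 ALDH1A enzymes carry out the last step of synthesis. Aldh1a1, on chromosome 19 from 20492715 to 20643465, had values of 8.77, 9.24, 7.04, 8.34 and 6.68 in the wildtype tumors and 12.63, 11.20 and 11.98 in the PRC2 loss tumors. No wildtype tumor came within 1.95 of the lowest PRC2 loss tumor. The means were 8.02 ± 1.11 (SD, n = 5) and 11.94 ± 0.72 (SD, n = 3), a log2 difference of 3.92 (SE 0.62). Reads of its close paralog Aldh1a7 may be split between these genes, so the values are uncertain to that extent.

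Aldh1a2, on chromosome 9 from 71215789 to 71296243 and the main retinoic acid producing enzyme of the early embryo, had values of 7.08, 8.45, 10.17, 7.0 and 6.12 in the wildtype tumors and 11.66, 11.49 and 10.52 in the PRC2 loss tumors. The groups came close, since wildtype tumor 3 lay only 0.36 below PRC2 loss tumor 3. The means were 7.76 ± 1.58 (SD, n = 5) and 11.23 ± 0.61 (SD, n = 3), a log2 difference of 3.46 (SE 0.83), which was 4.07 without wildtype tumor 3. Wildtype tumors 3 and 4, of 1 animal number, differed by 3.17, so the spread within a number was nearly as large as the difference between the groups. Dendritic cells and mesothelium are known to make this enzyme. The dendritic cell list fell in 5 of its 6 markers, while the Schwann cell, perineurial and endothelial lists mostly rose. The mesothelial list had 1 of 5 markers higher (Wt1). Its sum ran from 6.10 to 9.61 in wildtype, the highest through Krt19 at 9.58 in tumor 1, and from 6.94 to 8.31 in PRC2 loss. The part of any cell type in the Aldh1a2 values was not tested.

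Aldh1a3, on chromosome 7 from 66390890 to 66427517, had values of 10.27, 10.54, 8.64, 6.47 and 9.83 in the wildtype tumors and 10.56, 12.52 and 10.38 in the PRC2 loss tumors. The groups overlapped: wildtype tumor 2 lay above PRC2 loss tumor 3 and just below PRC2 loss tumor 1. PRC2 loss tumor 2 stood clear above the rest and wildtype tumor 4 stood clear below them. The means were 9.15 ± 1.67 (SD, n = 5) and 11.16 ± 1.19 (SD, n = 3), a log2 difference of 2.00 (SE 0.95), which was 1.32 without PRC2 loss tumor 2 and 1.33 without wildtype tumor 4.

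Of the CYP26 enzymes, which oxidize retinoic acid for removal, the means of Cyp26b1 and Cyp26a1 lay in opposite directions, with overlapping groups for Cyp26a1. Cyp26b1, on chromosome 6 from 84571414 to 84593908, had values of 7.12, 6.39, 10.04, 9.84 and 9.85 in the wildtype tumors and 10.79, 11.58 and 11.62 in the PRC2 loss tumors. The wildtype tumors fell into 2 levels: tumors 1 and 2, which share an animal number, lay low. Wildtype tumors 3, 4 and 5 lay close together, 0.75 or more below the lowest PRC2 loss tumor. The summed skeletal muscle level was 16.02 and 15.66 in wildtype tumors 1 and 2, and 6.71, 9.49 and 12.40 in PRC2 loss tumors 1 to 3. PRC2 loss tumor 3 had the highest Cyp26b1 value. Wildtype tumors 1 and 2 also had the highest Schwann cell and myelin sums of their group (14.31 and 14.51). The part of either in the Cyp26b1 values was not tested. The means were 8.65 ± 1.75 (SD, n = 5) and 11.33 ± 0.47 (SD, n = 3), a log2 difference of 2.68 (SE 0.90). Without wildtype tumors 1 and 2, left out after the data were seen, the difference was 1.42, so nearly all of the spread in wildtype and much of the difference came with those 2 tumors.

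Cyp26a1, on chromosome 19 from 37697798 to 37701536, had low values. They were 3.27, 4.91, 3.46, 1.97 and 3.74 in the wildtype tumors and 2.34, 0 and 1.97 in the PRC2 loss tumors. PRC2 loss tumor 2 was listed at 0 and the other 2 lay within the wildtype range. The means were 3.47 ± 1.05 (SD, n = 5) and 1.44 ± 1.26 (SD, n = 3), a log2 difference of -2.04 (SE 0.75) that shrank to -0.57 with a pseudocount of 16. Without PRC2 loss tumor 2 it was -1.32. The third family member, Cyp26c1, named after its values were seen, did not pass (limma adjusted p = 0.0543). It was listed at 0 in all 3 PRC2 loss tumors and reached at most 2.45 in wildtype, where tumor 5 was at 0 as well.

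Rarb, on chromosome 14 from 16430839 to 16819156, encodes the retinoic acid receptor beta. Its value was 8.97, 8.73, 8.46, 7.99 and 7.57 in the wildtype tumors and 10.90, 11.02 and 9.86 in the PRC2 loss tumors. The groups were apart by 0.89, and within each group the tumors were close together. The means were 8.34 ± 0.56 (SD, n = 5) and 10.60 ± 0.64 (SD, n = 3), a log2 difference of 2.25 (SE 0.38), or 4.76-fold. Of the exon bases of Rarb, 34.1% are shared with exons of Top2b on the opposite strand, and whether counting used strand is not given in the sources used here. For Top2b the wildtype mean was 12.51 ± 0.13 (SD, n = 5), its PRC2 loss mean was 12.52 ± 0.18 (SD, n = 3), and without strand the reads of the shared bases cannot be told apart.

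Of the 7 genes with a RefSeq promoter, Rarb and Cyp26a1 were the 2 that held a DR5 element in this window. A DR5 element is a direct repeat with 5 bases between its units. The starts of both genes are shown for that reason, and because their mean differences lay in opposite directions. Both strands were searched for units of AGGTCA, and accepted as a variant of this unit were AGTTCA, likewise the variant GGGTCA, and likewise the variant GGTTCA. In this search 32 of 32851 promoters (0.0974%), of 31 genes, held a match. The stricter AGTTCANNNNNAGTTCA and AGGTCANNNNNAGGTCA, which are part of that search, were found in 8 and 3 promoters. The Rarb match, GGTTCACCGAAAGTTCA, ran from base -53 to base -37 before the RefSeq start on the strand of the gene. The Cyp26a1 match ran from base -32 to base -16 and reads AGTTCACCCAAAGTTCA on the opposite strand. The stretches below, with the match in capitals, lie at chr14:16575507-16575536 on the minus strand and at chr19:37697698-37697797 on the plus strand (RefSeq, GRCm38.p6). The Rarb stretch is kept to 30 bases since longer GENCODE transcripts start upstream of it.
Rarb: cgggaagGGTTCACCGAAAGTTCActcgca
Cyp26a1: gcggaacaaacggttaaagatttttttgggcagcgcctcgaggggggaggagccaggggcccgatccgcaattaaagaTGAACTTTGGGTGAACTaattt
The match in Rarb went with a higher and that in Cyp26a1 with a lower mean in PRC2 loss. For Cyp26a1 the values were low, the groups overlapped and PRC2 loss tumor 2 was at 0. Its log2 difference of -2.04 shrank to -0.57 with a pseudocount of 16. None of the 29 transport and metabolism genes, 15 receptor and cofactor genes and 10 responsive genes with a promoter in the table held a match. A match describes letters in this window, and binding was not measured.

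Per length of exon the order of the 9 genes differed between the groups. Levels were compared as the log2 value minus the log2 of the merged exon length in kb, over all GENCODE M21 isoforms of a gene. In wildtype tumors Crabp1 led at 14.99 ± 1.52 (SD, n = 5) per kb and Crabp2 followed at 9.77 ± 0.39 (SD, n = 5), and neither overlapped its neighbor in the order. Below them Aldh1a3, Aldh1a2, Cyp26b1, Rarb and Aldh1a1 lay between 6.95 and 5.71 per kb, each overlapping its neighbors, followed by Stra6 at 3.96 and Cyp26a1 at 2.48. In PRC2 loss tumors Aldh1a2 led at 10.05 ± 0.61 (SD, n = 3) per kb, with Aldh1a1 at 9.63 and Stra6 at 9.56. Crabp1 came after these at 8.98 ± 0.22 (SD, n = 3), and the first 8 genes in the order each overlapped their neighbors, down to Crabp2 at 7.55. Only Cyp26a1, at 0.45 per kb, stood apart.

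**Figure D3:**
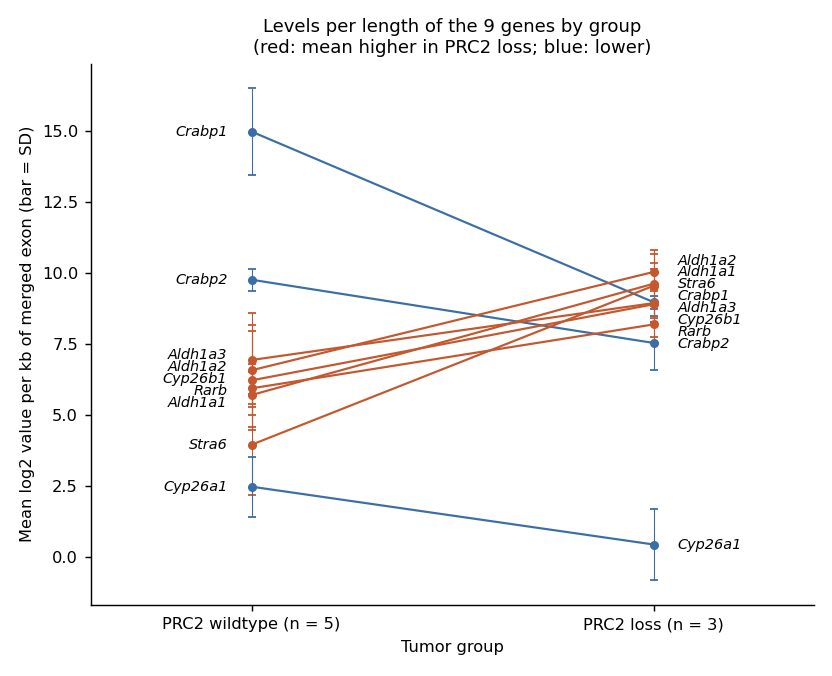
Mean log2 value per kb of merged exon (vertical axis, bar = SD) of the 9 genes in PRC2 wildtype (n = 5) and PRC2 loss (n = 3) tumors, with lines joining a gene. Crabp1 goes from 14.99, far above the rest, to 8.98, within the range of Stra6, the ALDH1A enzymes, Cyp26b1 and Rarb, while Cyp26a1 is lowest in both groups.

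The genes whose profiles over the 8 tumors were most like these were found by the root mean square difference between profiles, each centred on its own mean, among 10222 genes at or above the median mean, predicted genes left out. The measure depends on the size of the differences between tumors as well as on their order. Nearest to Crabp1 were Sema3a (0.54 on the log2 scale), a repulsive guidance cue, Ptchd1 (0.81) and Hmga2 (0.88), a chromatin architectural factor. Nearest to Crabp2 were Tnfrsf12a (0.26), Cks1b (0.32) and E2f1 (0.33), the last 2 being cell cycle genes. Rarb lay closest to Ptprf (0.25), Dmd (0.25) and Clca3a1 (0.27). Aldh1a1 lay closest to Limch1 (0.52), Abat (0.55) and Hspa12a (0.56). For Stra6 the nearest genes were farther off, with Reln at 1.17, the myelin scaffold gene Prx at 1.38 and Cdkn1c at 1.38, and for Aldh1a2 they were Thsd4 (0.87), Lrp4 (0.88) and Cnksr2 (0.91). Cyp26b1 lay closest to Cttnbp2 (0.62), Sema4g (0.68) and Eya1 (0.72), Aldh1a3 to Hc (0.64), Map6 (0.65) and Fhl2 (0.68), and Cyp26a1 to Hspa1b (0.73), Cfp (0.74) and Adam8 (0.76).

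Of 31 other genes of retinoid transport, storage and metabolism, 6 rose, 6 fell and 19 did not pass in PRC2 loss (limma, adjusted over all genes), a share of 38.7% that is near the 35.7% of all genes, with a median log2 difference of 0.20. With housekeeping centring 12 rose and 3 fell, and with tumors of an animal number averaged 5 rose and 2 fell. Adh1, an alcohol dehydrogenase that can oxidize retinol, was 15.8-fold higher, going from 9.04 ± 0.68 (SD, n = 5) to 13.02 ± 0.41 (SD, n = 3) (limma adjusted p = 0.000331). It rose in all 3 PRC2 loss tumors above every wildtype tumor. Ttr, the plasma partner of the retinol carrier RBP4, was listed at 0 in all 5 wildtype tumors but had values of 8.30, 5.2 and 4.12 across PRC2 loss tumors 1 to 3 (limma adjusted p = 0.00133). Rbp7, a cellular retinol binding protein gene of adipose tissue and endothelium, rose by 2.95 (limma adjusted p = 0.0018). Of the endothelial markers 5 of 6 rose, and none of the 5 adipocyte markers passed. The part of either cell type in the Rbp7 values was not tested. Rbp2, the cellular retinol binding protein of the intestine, fell by 5.16, from 6.62 ± 1.48 (SD, n = 5) to 1.46 ± 0.50 (SD, n = 3) (limma adjusted p = 0.00259).

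The carotenoid enzymes moved apart. Bco1, which cleaves beta-carotene to retinaldehyde, rose by 2.13 from a low level of 2.01 ± 0.47 (SD, n = 5) (limma adjusted p = 0.00463), and Bco2, which cleaves carotenoids off center, fell by 1.95 from 7.36 ± 0.46 (SD, n = 5) (limma adjusted p = 0.00375). The remaining 6 that passed are named after their values were seen. Rlbp1, a retinaldehyde binding protein gene of the retina, rose by 3.18 and the dehydrogenase gene Rdh13 by 0.92. The dehydrogenase genes Rdh1, Rdh9 and Dhrs9 fell by 2.39, 1.82 and 2.65, and Rdh10 fell as well. Rdh10, the main enzyme for the first oxidation step in the embryo, stood at 10.61, 10.47, 11.65, 11.30 and 11.99 in the wildtype tumors and 9.59, 10.24 and 9.39 in the PRC2 loss tumors. Its groups did not overlap and it fell by 1.47 (limma adjusted p = 0.0174). That call was lost without PRC2 loss tumor 1 or 3, with averaged animal numbers and with housekeeping centring (limma adjusted p between 0.0552 and 0.0765). It was also lost with the replicate number as a block (highest limma adjusted p = 0.167 over all alternatives). The calls of Rdh9 and Dhrs9 were lost in 9 and 7 of 18 alternatives, among them those without wildtype tumor 4, PRC2 loss tumor 1 or PRC2 loss tumor 2, that of Rlbp1 without PRC2 loss tumor 1, and those of Rdh1 and Rdh13 with animal numbers averaged (limma adjusted p = 0.0538 and 0.0784). That of Rdh9 was also lost without wildtype tumor 3 or PRC2 loss tumor 3. A pseudocount of 16 shrank the log2 differences of the low genes, to -2.69 for Rbp2, 2.30 for Ttr, 0.75 for Bco1, -0.75 for Rdh1, -1.05 for Rdh9 and 1.37 for Rlbp1. Cyp1b1, a cytochrome P450 gene of the list, did not pass (limma adjusted p = 0.558), but did without wildtype tumors 1 and 2, where its log2 difference was 1.62.

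Among 20 other receptors and cofactors, 6 rose and 1 fell (35%, against 35.7% of all genes), with a median log2 difference of -0.06. With housekeeping centring 13 rose and 1 fell, and 4 passed without wildtype tumor 4, without PRC2 loss tumor 2 or with animal numbers averaged. Of the RXR genes, which encode the partners of every RAR, Rxra rose by 0.72 from 11.64 ± 0.16 (SD, n = 5) to 12.37 ± 0.22 (SD, n = 3) (limma adjusted p = 0.00537). Rxrg rose by 3.20, from 6.61 ± 1.82 (SD, n = 5) to 9.81 ± 0.37 (SD, n = 3) (limma adjusted p = 0.0299), but not without wildtype tumor 4 or any of the PRC2 loss tumors, or with animal numbers averaged (highest limma adjusted p = 0.101 over all alternatives). The receptor genes Rara, Rarg and Rxrb, named after their values were seen, did not pass in limma. Rara stood at 11.05 ± 0.23 (SD, n = 5) and 10.95 ± 0.26 (SD, n = 3), Rarg at 12.56 ± 0.22 (SD, n = 5) and 11.90 ± 0.57 (SD, n = 3), and Rxrb at 10.93 ± 0.32 (SD, n = 5) and 11.03 ± 0.17 (SD, n = 3). Rarg passed without PRC2 loss tumor 3 (log2 difference -0.88) and with array weights (-0.58), lower in PRC2 loss each time. With housekeeping centring Rara (0.52) and Rxrb (0.72) passed, higher in PRC2 loss. Whether Rarb differed from the other receptor genes in its response was not tested.

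The changes among cofactors were mostly small. Zfp423, a zinc finger factor that works with RAR and RXR, rose by 2.47, from 7.64 ± 0.58 (SD, n = 5) to 10.12 ± 0.13 (SD, n = 3) (limma adjusted p = 0.00108). Fabp5 fell by 2.05, from 10.88 ± 0.71 (SD, n = 5) to 8.83 ± 0.15 (SD, n = 3) (limma adjusted p = 0.00419), and so lay in the same direction as both CRABP genes. The coactivator gene Ncoa1 rose by 0.90 (limma adjusted p = 0.00958). Its relative Ncoa3 rose by 0.85 (limma adjusted p = 0.0293), a call lost in 8 of 19 alternatives, among them those without wildtype tumor 3, 4 or 5 or PRC2 loss tumor 2 or 3 (limma adjusted p between 0.0502 and 0.109). Crebbp, named after its values were seen, rose by 0.53 (limma adjusted p = 0.0438) and lost its call in 13 of 19 alternatives, including those without each tumor other than wildtype tumor 5. The corepressor gene Ncor1 did not pass (limma adjusted p = 0.884), except with housekeeping centring, where its sign turned and it was 0.58 higher in PRC2 loss (limma adjusted p = 0.0446).

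Of 18 genes known to respond to retinoic acid, 4 rose and 1 fell (27.8%, against 35.7% of all genes), with a median log2 difference of 0.39. With housekeeping centring 9 rose and 1 fell, and with animal numbers averaged 2 rose and 1 fell. The orphan nuclear receptor genes Nr2f1 and Nr2f2 moved in opposite directions. Nr2f1 fell by 1.56, from 11.98 ± 0.28 (SD, n = 5) to 10.42 ± 0.16 (SD, n = 3) (limma adjusted p = 0.000549), and Nr2f2 rose by 1.04, from 12.16 ± 0.23 (SD, n = 5) to 13.20 ± 0.54 (SD, n = 3) (limma adjusted p = 0.0114). Rarres2, which encodes the secreted protein chemerin, rose by 2.69 (limma adjusted p = 0.0111), a call lost narrowly when PRC2 loss tumor 3 was left out or animal numbers were averaged (limma adjusted p = 0.0504 and 0.0515).

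Foxa1, a forkhead factor, was uneven in wildtype. Its value was 8.01 in wildtype tumor 1, 1.22 in tumor 3 and 0 in tumors 2, 4 and 5, against 8.09, 6.75 and 7.73 in the PRC2 loss tumors. The groups overlapped through wildtype tumor 1 alone, and the rise of 5.68 (limma adjusted p = 0.0394) was lost in 11 of 18 alternatives, those leaving out wildtype tumor 2, 3, 4 or 5 or any PRC2 loss tumor among them (limma adjusted p between 0.0678 and 0.116). With a pseudocount of 16 the difference was 2.74. Tgm2, a transglutaminase gene, did not pass, at 11.77 ± 1.02 (SD, n = 5) and 13.07 ± 0.40 (SD, n = 3) (limma adjusted p = 0.0937), but passed without wildtype tumor 1, where the log2 difference was 1.59, and with housekeeping centring, where it was 1.92. Bhlhe40 did not pass (limma adjusted p = 0.84).

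**Figure D4:**
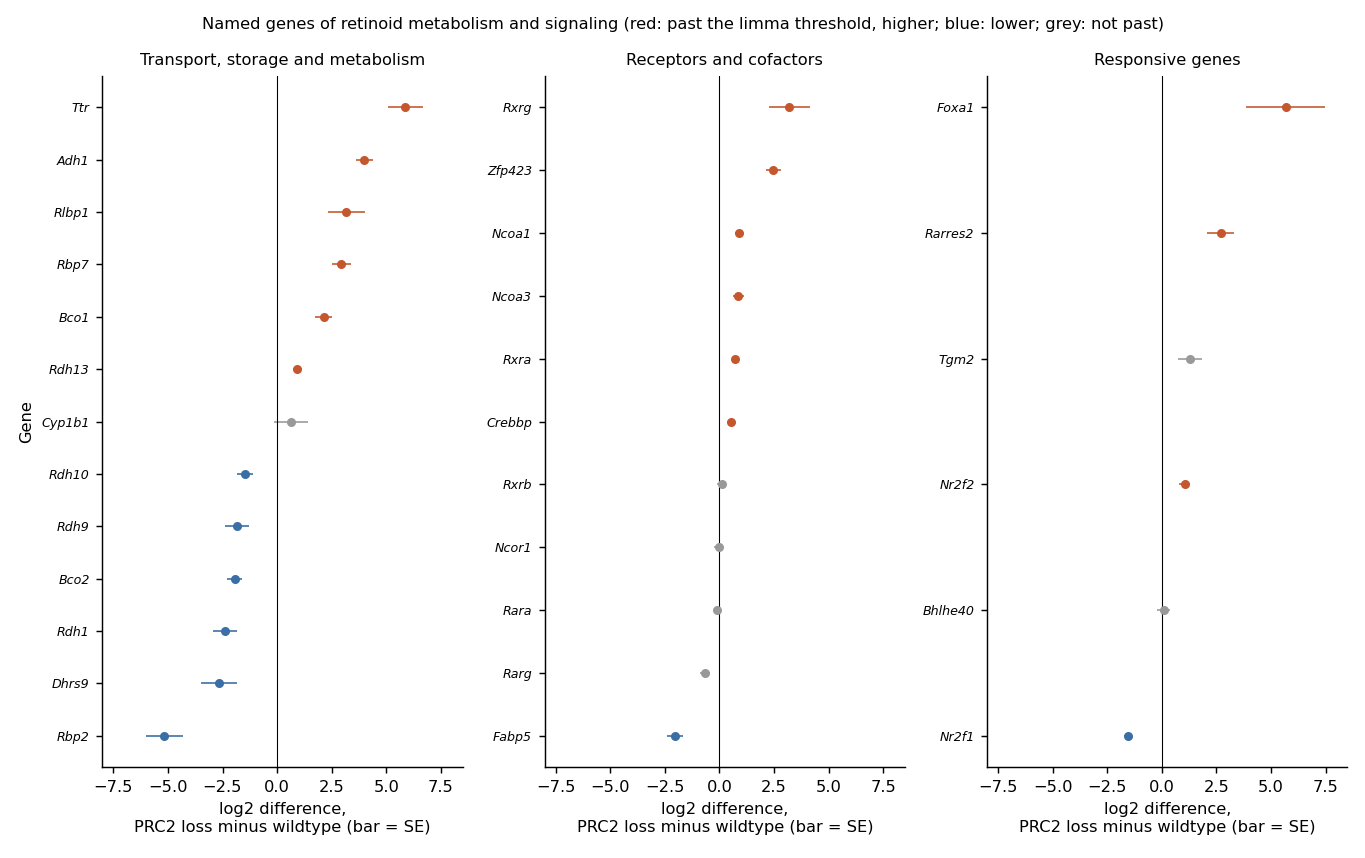
Log2 difference, PRC2 loss minus wildtype (horizontal axis), of the genes named in the text, except Cyp26c1, from the lists of transport, storage and metabolism, receptors and cofactors, and responsive genes. Bars are 1 SE from limma, and color marks genes past the threshold (red higher, blue lower, grey not past). Adh1, Ttr, Zfp423 and Rarres2 lie to the right of 0 and Rbp2, Bco2, Fabp5 and Nr2f1 to the left.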

How the data were processed

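RNA-seq was measured in 8 mouse tumors, 5 PRC2 wildtype and 3 PRC2 loss, grouped by their labels. The authors deposited quantile-normalized log2 gene counts, per the labels; Trim Galore, STAR 2.6, Partek 7.0 and mm10 are named per the submitters' processing notes. Offset before the log, counting rules and read depth were not stated there, so no counting interval was computed. Of 20943 genes, 136 were constant and left out. The other 20807 were tested with limma 3.58.1 in R 4.3.3 (empirical Bayes with a trend, Benjamini-Hochberg adjustment over all genes, threshold 0.05). The procedure was first run on simulated data with independent tumors, which cannot show an effect of shared animal numbers on the p-values. SE is limma's moderated error. Exon lengths came from GENCODE M21, promoters from RefSeq GRCm38.p6, the same assembly as mm10. The genes and lists were chosen with earlier results of these data known. Named were, per list, up to 6 genes past the threshold, taken by p, and up to 2 others, taken by mean, Eed, and the 3 genes closest in profile to each of the 9. Alternatives changed the pseudocount, low-value filter, variance prior, sample weights, scaling, handling of animal numbers and the tumors included. Some genes of these lists are counted but not reported here by name.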

Additional observations from a re-analysis of the deposited data

Results flagged for a closer look

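Of 29 genes, all but Ttr, which was 0 in every wildtype tumor, were examined for a wildtype tumor far from the other 4. The measure was the gap to the nearest tumor over the range of the group (critical value 0.71). In all 2 tumors were found, and chance gives about 1 in 20 groups. Foxa1 stood at 8.01 in wildtype tumor 1, with a gap of 0.848 of the range. Since 3 of its wildtype values were 0, that chance rate may not hold for it. Bco1 stood at 2.80 in wildtype tumor 2, with a gap of 0.711 of the range, just past the critical value.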

How the results depend on the processing

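Of 170 recomputed differences of the 9 genes, 168 moved by less than the spread between replicates. The exceptions were Cyp26a1, at -0.57 with a pseudocount of 16, and Rarb, at 2.87 with housekeeping centring. Changes of the variance prior and the low-value filter cannot move a difference, and leaving out 1 tumor moves a mean only in part. The count of 168 is therefore no measure of stability. Depth is unknown, so low genes carry the least weight. The number of genes past the threshold, 7424 of all genes, was 4248 with the low-value filter, 4226 with animal numbers averaged and 5528 to 7697 with 1 tumor left out. For transport and metabolism it went from 12 to 3 with the filter, 7 with averaging and 8 to 14 with 1 tumor left out. For receptors and cofactors it went from 7 to 14 with centring, 4 with averaging and 4 to 6 with 1 tumor left out. For responsive genes it went from 5 to 3 with the filter, 8 with array weights, 10 with centring, 3 with averaging and 4 to 6 with 1 tumor left out. The filter tests fewer genes and averaging uses fewer samples; the cause of the other shifts was not tested.

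Replicate numbers did not pair the tumors: same-numbered tumors' deviations from their group means correlated at -0.16, 0.09 and -0.05 over 20807 genes. With the number as a replicate block, 1903 of all genes passed, 3 of transport and metabolism, 2 of receptors and cofactors and 1 of the responsive genes.

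Of 578 recomputed differences of other named genes, 481 kept direction and side of the threshold, 75 lost and 7 gained the call, and 15 changed sign, in genes that had not passed. With centring, Ncor1 was 0.58 and Rara 0.52, and both then passed. With averaging, Ncor1 was 0.000617 and Bhlhe40 -0.0199. With the replicate block, Cyp1b1 was -0.30, Ncor1 0.0742, Bhlhe40 -0.0587 and Rxrb -0.0443. With array weights Rara was 0.0488. With 1 tumor left out, Ncor1 ranged from -0.16 to 0.0429, Bhlhe40 from -0.0798 to 0.30 and Rara from -0.24 to 0.0161. The cause was not tested.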
